A study of Equus caballus with 15 samples.

Results

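The 10 genes described here are the cytokines IL17A, IL17F, IL21 and IL22, the receptor chains IL17RA, IL17RB, IL17RC, IL17RD and IL17RE, and the adaptor TRAF3IP2. They were chosen by name as genes of the IL-17 system, and all 10 were found among the 16932 genes measured. RNA was sequenced from equine macrophages in 5 conditions with 3 libraries each. Macrophages were grown from blood mononuclear cells of 2 horses, aged 3 and 5 years, for 5 days with human M-CSF at 30 ng/mL, a factor that drives monocytes to become macrophages. Untreated macrophages received nothing further, and IL-1ß macrophages received the joint inflammation cytokine IL-1ß at 10 ng/mL for 24 h. The other conditions received the same IL-1ß together with an orthobiologic therapy (OT) as 25% of the culture medium. These were MSC-CM (medium conditioned by mesenchymal stromal cells of bone marrow), PRP lysate (lysed platelet rich plasma) and ACS (autologous conditioned serum, which is serum kept in contact with blood cells so that it gathers their cytokine antagonists). The same 3 donor horses, aged 2, 5 and 5 years, gave every product, so the OT libraries replicate the product and the OT groups share donors, but the labels do not tie a replicate number to a horse. The IL-1ß and untreated libraries are described as technical replicates of the macrophages. The main test below pools the spread over all conditions, so its p-values mix technical replicates with replicates of the product. The authors describe washes and then another 24 h of culture before RNA was taken, a culture step that the sample labels do not give.

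IL-17A and IL-17F are secreted mainly by type 17 T helper cells, gamma delta T cells and innate lymphoid cells, and IL-21 and IL-22 often come from the same cells. IL-17A and IL-17F bind a receptor of IL-17RA and IL-17RC, which recruits the adaptor Act1, the product of TRAF3IP2, and drives neutrophil chemokines, G-CSF, GM-CSF and matrix metalloproteinases in stromal, epithelial and myeloid cells. In joints this axis is known for acting on synovial fibroblasts and chondrocytes, often together with TNF and IL-1ß. Macrophages are usually regarded as responders to IL-17 rather than as its source.

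The values are CPM, the reads of a gene scaled to a common library total, and the libraries held 28410733 to 47894066 reads on genes, so that a single read was worth 0.0209 to 0.0352 CPM. Lengths of the transcripts were not at hand, so levels are compared between conditions and not between genes. Of 12 macrophage markers, CTSB (4134 to 10188 CPM), CD68 (1340 to 2157 CPM), MRC1 (515 to 3394 CPM), SPI1 (368 to 798 CPM), CSF1R (94.3 to 539 CPM) and MSR1 (65.7 to 273 CPM) were abundant in every library. CD163 ranged from 7.34 to 710 CPM. Low levels were found for AIF1 (8.63 to 28.1 CPM), LYZ (1.13 to 15.8 CPM), MARCO (0.699 to 6.44 CPM), CD14 (1.38 to 4.32 CPM) and ITGAM (1.10 to 3.47 CPM). The T cell gene CD3E was also present in every library, at 140 to 520 CPM. In bulk RNA, fewer cells of a type and less RNA per cell cannot be told apart. IL-1ß replicate 3, PRP lysate replicate 1 and MSC-CM replicate 1 stood apart on the first principal component, at -103, -51.7 and -20.7, where all others lay between -8.15 and 26.6. This component held 55.4% of the variance.

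IL17A was the cytokine of the group that rose with PRP lysate, and IL17RC was the receptor chain that separated PRP lysate from MSC-CM. Here a call needed both a 2-fold difference and a limma p-value, adjusted over 11628 genes (Benjamini-Hochberg), no higher than 0.05 on the log2(CPM + 1) scale. Of the 10 members, 8 had the mean of 1 CPM needed to enter this test. Against IL-1ß, 1 of the 8 was called with PRP lysate (IL17A), where 3.09% of all genes tested were called. With ACS 0 of the 8 were called against IL-1ß, where 2.21% of all genes were, and with MSC-CM 0 of the 8, where the share of all genes was 0%. IL-1ß against untreated macrophages gave 0 of the 8, beside 0.292% of all genes. These shares were not stable when libraries were left out. Leaving out 1 library at a time gave 5 to 35 genes in place of 34 for IL-1ß against untreated macrophages. For ACS against IL-1ß it gave 103 to 705 in place of 257. Leaving out the ACS libraries gave 6 for IL-1ß against untreated macrophages, although that comparison does not hold them. The cause was not tested. With the unadjusted limma p-value limited to 0.05 there were 1 member for IL-1ß against untreated macrophages, and 4 for PRP lysate, 2 for ACS and 1 for MSC-CM against IL-1ß, beside 13%, 17.5%, 20.5% and 5.6% of all genes. These comparisons share the IL-1ß libraries and are not independent. Against untreated macrophages, PRP lysate called 1 member (IL17A, background 1.6%), while MSC-CM (background 0.662%) and ACS (background 0.37%) called 0. Between the OTs, PRP lysate against MSC-CM called 2 members (IL17A and IL17RC, background 2.61%), and ACS called 0 against MSC-CM (background 1.23%) and 0 against PRP lysate (background 0.0946%). By unadjusted p-value these comparisons held 1 member for MSC-CM, 5 for PRP lysate and 2 for ACS against untreated macrophages, beside 15.7%, 12.8% and 7.65% of all genes. They held 4 for PRP lysate and 2 for ACS against MSC-CM, beside 14.5% and 13.5%, and 2 for ACS against PRP lysate, beside 5.19%. edgeR on reads recovered from the CPM called the same members as limma in all 10 comparisons. DESeq2 on these reads also called IL17F with PRP lysate against IL-1ß, untreated macrophages and MSC-CM, IL22 with ACS against untreated macrophages and MSC-CM, and IL17A between ACS and PRP lysate.

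IL17A encodes the founding cytokine of the family (ENSECAG00000038266, chromosome 20, 50879884 to 50883656, EquCab3.0). It was at 0.843, 0.589 and 1.29 CPM in the untreated libraries, and at 1.81, 1.67 and 0.415 CPM with IL-1ß. With MSC-CM it was at 1.27, 1.47 and 0.889 CPM, and with ACS at 1.66, 2.34 and 1.29 CPM. With PRP lysate it reached 5.13, 8.82 and 5.03 CPM, which are 191, 369 and 143 reads. All PRP lysate libraries lay above all 12 libraries of the other conditions, which overlapped one another except that ACS lay just above untreated. The mean was 6.33 ± 2.16 CPM (SD, n = 3) with PRP lysate and 1.30 ± 0.766 CPM with IL-1ß, a ratio of 4.88. On the log2(CPM + 1) scale, which shrinks the change of a gene at so few CPM, the difference was 1.70 (SE 0.289, 95% interval 1.08 to 2.32, limma adjusted p = 0.0038). Against untreated macrophages the ratio was 6.97 and the log2 fold change 1.92 (adjusted p = 0.0032), and against MSC-CM the ratio was 5.24 and the log2 fold change 1.70 (adjusted p = 0.0043). ACS lay 1.38 below PRP lysate on the log2 scale, which did not pass (adjusted p = 0.106), although DESeq2 called it (adjusted p = 0.0122). Without the 3 libraries that stand apart the rise with PRP lysate over IL-1ß was 1.49 (adjusted p = 0.0060). In a fit confined to these groups, 6 libraries in all, it was of the same size but did not pass (limma adjusted p = 0.166).

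IL17F, the closest relative of IL17A, lies 40.5 kb from it (ENSECAG00000031935, chromosome 20, 50924159 to 50931137), with 0 listed genes between them. It was at 0.403, 9.40 and 7.64 CPM with PRP lysate, or 15, 393 and 217 reads. In untreated macrophages it was at 0.664, 0.448 and 0.481 CPM, and with IL-1ß at 1.31, 0.170 and 0.277 CPM. MSC-CM gave 0.657, 0.231 and 0 CPM, and ACS gave 1.80, 1.29 and 0.960 CPM. The highest 2 values of all 15 libraries were those of PRP lysate replicates 2 and 3, while replicate 1 lay within the IL-1ß range and below every untreated library. Replicate 1 is also a library that stands apart, and its IL17A level of 5.13 CPM was not low. For PRP lysate over IL-1ß the ratio of means was 9.95, and edgeR gave a log2 fold change of 3.24 (adjusted p = 0.150). The log2(CPM + 1) scale shrinks such a change at so few CPM. On that scale the log2 fold change of PRP lysate over IL-1ß was 1.73 (SE 0.574, 95% interval 0.49 to 2.97) and did not pass with limma (adjusted p = 0.117). DESeq2 gave an adjusted p of 0.0261. Without PRP lysate replicate 1 the limma log2 fold change was 2.65, and the gene was called (limma adjusted p = 0.00051). Without replicate 2 it was 1.21 (adjusted p = 0.375) and without replicate 3 it was 1.34 (adjusted p = 0.382). Against untreated macrophages the log2 fold change was 1.71 (adjusted p = 0.170) and against MSC-CM it was 1.98 (adjusted p = 0.0773). IL17F entered the test through its level with PRP lysate (mean 5.81 CPM), since its means in the other conditions were 0.296 to 1.35 CPM, and no count over the tested members is offered as support for a shared rise.

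**Figure D1:**
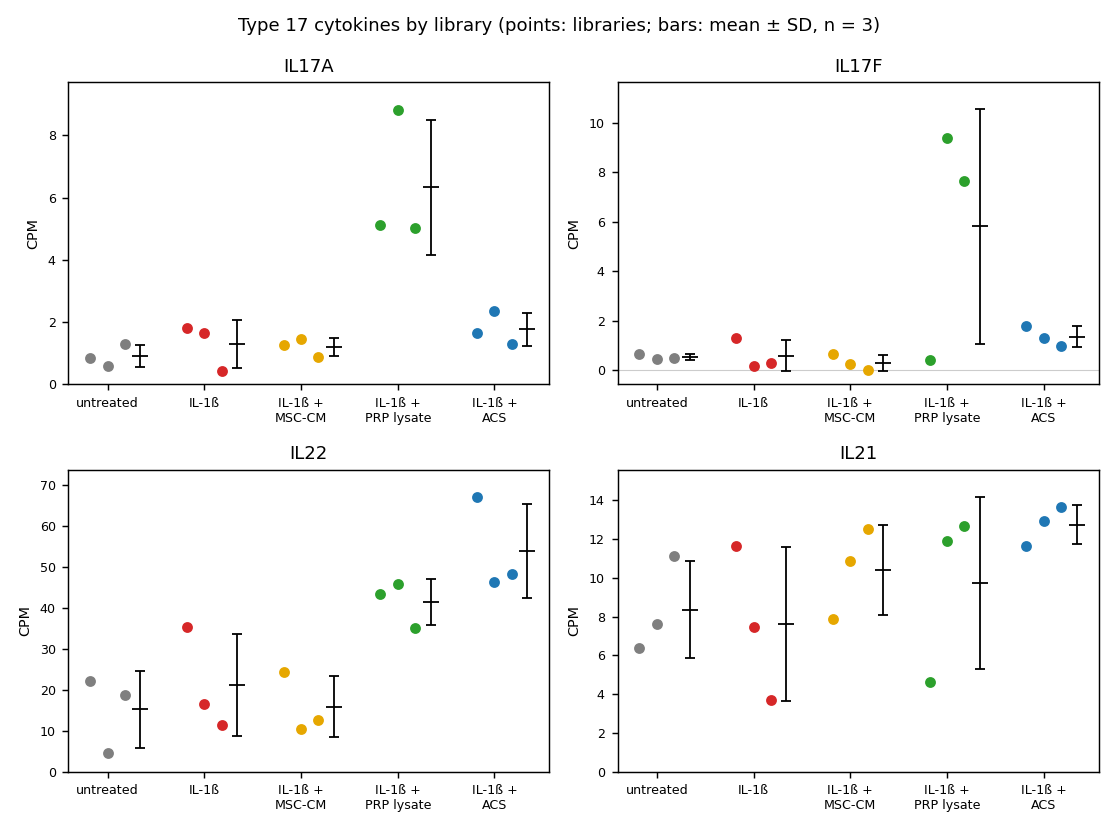
CPM of IL17A, IL17F, IL22 and IL21 in each library (points, replicates 1 to 3 from left to right) of the 5 conditions on the horizontal axis, with the mean and SD of 3 libraries beside them. The 3 PRP lysate libraries stand highest for IL17A (5.03 to 8.82 CPM), only replicates 2 and 3 do so for IL17F, and the PRP lysate and ACS libraries lie above the untreated and MSC-CM libraries for IL22.

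IL22 encodes a cytokine of the IL-10 family that acts on epithelial and stromal cells (ENSECAG00000019526, chromosome 6, 84589946 to 84594123). It was at 43.5, 46.0 and 35.1 CPM with PRP lysate and at 67.1, 46.4 and 48.3 CPM with ACS. The untreated libraries held 22.3, 4.60 and 18.8 CPM, IL-1ß 35.3, 16.6 and 11.5 CPM, and MSC-CM 24.3, 10.5 and 12.7 CPM. All ACS libraries lay above the IL-1ß, untreated, MSC-CM and PRP lysate libraries, and all PRP lysate libraries lay above the untreated and MSC-CM libraries but not above IL-1ß replicate 1. These separations did not pass the test. The means were 53.9 ± 11.5 CPM with ACS and 21.2 ± 12.5 CPM with IL-1ß, and the log2 fold change was 1.44 (SE 0.504, 95% interval 0.35 to 2.52, limma adjusted p = 0.148). Without IL-1ß replicate 1, the highest library of its group, it was 1.86 and called (limma adjusted p = 0.0429), and without IL-1ß replicate 3 it was 1.10 (adjusted p = 0.412). Against untreated macrophages the log2 fold change with ACS was 1.98 (adjusted p = 0.152 with limma, 0.0425 with DESeq2), and against MSC-CM it was 1.77 (adjusted p = 0.110 with limma, 0.0140 with DESeq2). PRP lysate gave 1.62 over untreated macrophages (adjusted p = 0.134) and 1.41 over MSC-CM (adjusted p = 0.170). Without untreated replicate 2, the lowest library at 4.60 CPM, the values over untreated macrophages were 1.33 with ACS (adjusted p = 0.447) and 0.98 with PRP lysate (adjusted p = 0.456).

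IL21, which supports B cells and sustains type 17 T helper cells (ENSECAG00000037491, chromosome 2, 105868804 to 105878045), passed in 0 of the 10 comparisons (0 also with edgeR and DESeq2). It was at 6.36, 7.60 and 11.2 CPM in untreated macrophages, at 11.6, 7.49 and 3.70 CPM with IL-1ß, and at 7.90, 10.9 and 12.5 CPM with MSC-CM. With PRP lysate it was at 4.62, 11.9 and 12.7 CPM and with ACS at 11.6, 12.9 and 13.6 CPM. The lowest values were those of IL-1ß replicate 3 and PRP lysate replicate 1, 2 of the libraries that stand apart. ACS had the highest mean and lay above the untreated libraries, though not beyond the spread (limma adjusted p = 0.832).

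IL17RC encodes the receptor chain that pairs with IL-17RA to bind IL-17A and IL-17F (ENSECAG00000009634, chromosome 16, 8401755 to 8413243). It was at 240, 241 and 236 CPM with PRP lysate, above every other library. With MSC-CM it was at 126, 98.3 and 91.2 CPM, below every untreated library (182, 162 and 208 CPM) and every ACS library (186, 186 and 151 CPM). With IL-1ß it was at 112, 135 and 178 CPM, overlapping MSC-CM, ACS and untreated libraries. The conditions thus ranked PRP lysate, untreated, ACS, IL-1ß and MSC-CM by mean, and in this order only PRP lysate and its neighbour, untreated macrophages, did not overlap, without passing the test (limma adjusted p = 0.376). PRP lysate against MSC-CM was called, at 239 ± 2.57 against 105 ± 18.4 CPM, a ratio of 2.28 and a log2 fold change of 1.19 (SE 0.176, 95% interval 0.81 to 1.57, adjusted p = 0.0017). Without the 3 libraries that stand apart this was 1.33 (adjusted p = 0.00014). PRP lysate exceeded IL-1ß by 0.78 on the log2 scale (adjusted p = 0.0206 with limma, 0.164 with edgeR), and MSC-CM lay 0.81 below untreated macrophages (log2 fold change -0.81, adjusted p = 0.0393 with limma, 0.0917 with edgeR). Both were under the 2-fold limit. ACS exceeded MSC-CM by 0.73 (limma adjusted p = 0.0542), and the log2 fold changes of IL-1ß over untreated macrophages (-0.39, adjusted p = 0.366), MSC-CM over IL-1ß (-0.41, adjusted p = 0.705), PRP lysate over untreated macrophages (0.39) and ACS over PRP lysate (-0.46, adjusted p = 0.779) did not pass.

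IL17RA, the chain shared by the receptors of most IL-17 cytokines (ENSECAG00000017077, chromosome 6, 29008727 to 29030260), also passed in 0 of the 10 comparisons. It was at 62.1, 77.2 and 81.8 CPM in untreated macrophages, at 60.2, 68.5 and 63.0 CPM with PRP lysate and at 71.4, 76.5 and 79.0 CPM with ACS. With MSC-CM it was at 66.5, 86.9 and 98.0 CPM. IL-1ß gave 77.6, 72.7 and 29.1 CPM, and the last value, of the library farthest out on the first principal component, was the lowest of all 15. PRP lysate held the highest IL17RC values of all conditions, whereas its IL17RA values lay among those of the other conditions.

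**Figure D2:**
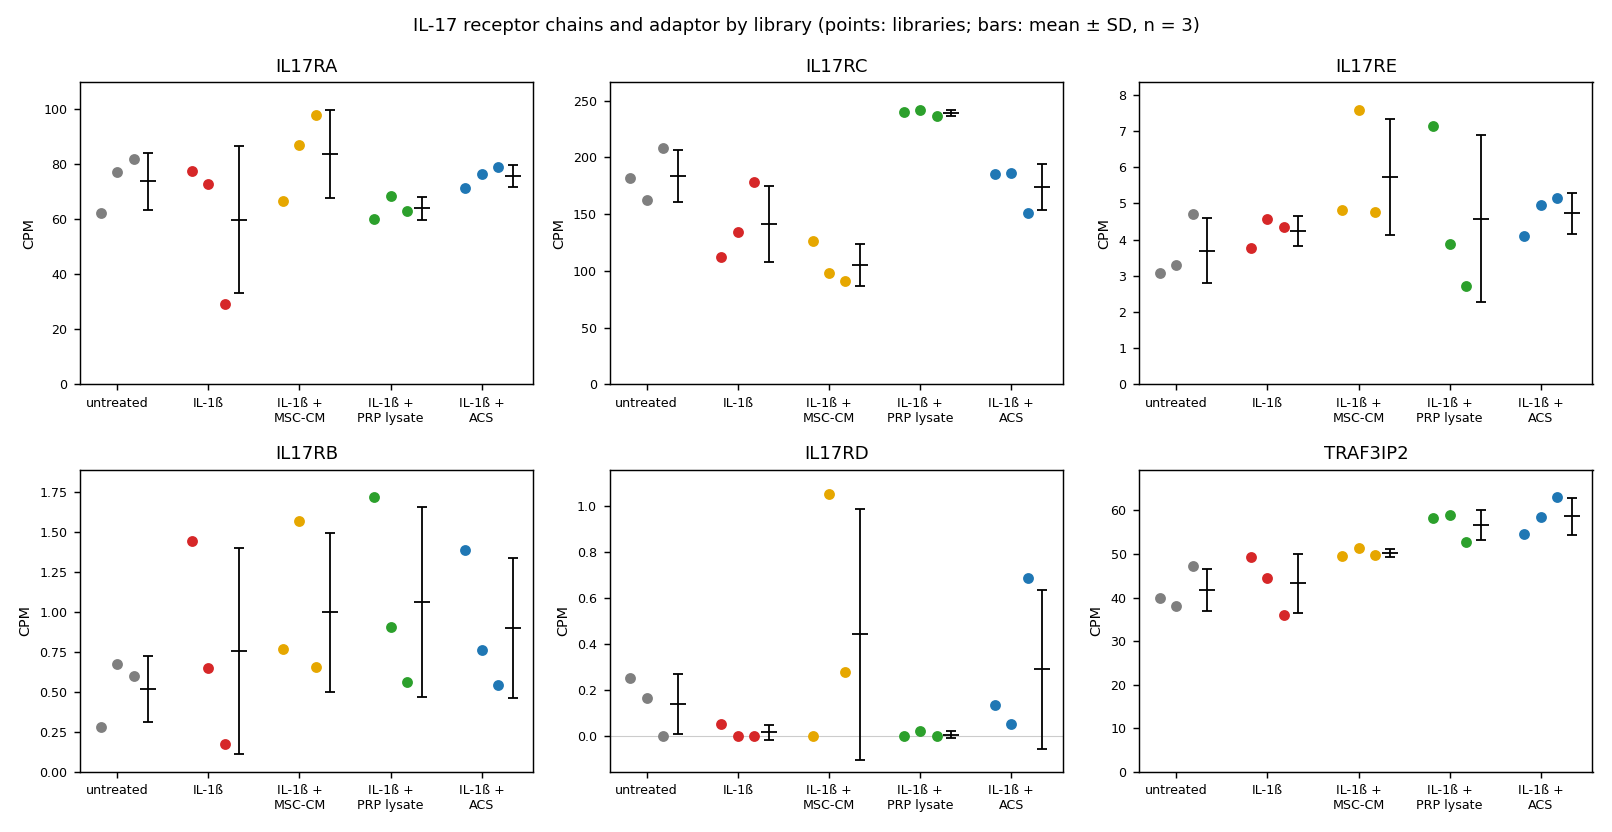
CPM of the receptor chains IL17RA, IL17RC, IL17RE, IL17RB and IL17RD and of the adaptor gene TRAF3IP2 in each library (points) of the 5 conditions, with the mean and SD of 3 libraries beside them. IL17RC stands highest with PRP lysate (236 to 241 CPM) and lowest with MSC-CM (91.2 to 126 CPM), and TRAF3IP2 is at 52.8 CPM or above in every PRP lysate and ACS library and at or below 49.4 CPM in every untreated and IL-1ß library.

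IL17RE, the chain that recognises IL-17C together with IL-17RA, lies 1.58 kb from IL17RC (ENSECAG00000014681, chromosome 16, 8414822 to 8424923). It ranged from 2.71 to 7.59 CPM and did not follow its neighbour, since its PRP lysate libraries held both the lowest value and the second highest value of all 15. Its mean was highest with MSC-CM, at 5.73 ± 1.61 CPM, and lowest in untreated macrophages, at 3.70 ± 0.894 CPM. These groups did not overlap, but the difference did not pass (limma adjusted p = 0.398).

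IL17RB, which binds IL-25 and IL-17B (ENSECAG00000004258, chromosome 16, 35530412 to 35544304), and IL17RD, a member known mainly as a brake on FGF signaling (ENSECAG00000008438, chromosome 16, 32647249 to 32705341), were too low for the main test. IL17RB had 5 to 64 reads per library, or 0.173 to 1.72 CPM, and in every condition the lowest and highest library spanned a range that overlapped all others. Its lowest adjusted p-value over the 10 comparisons was 0.721 with edgeR on the recovered reads. IL17RD had 10, 6 and 0 reads in untreated macrophages, 2, 0 and 0 with IL-1ß, and 0, 1 and 0 with PRP lysate. It had 0, 41 and 12 reads with MSC-CM and 5, 2 and 33 reads with ACS. A library with 0 reads allows up to 3 reads, which is 0.0626 to 0.106 CPM depending on its depth, counting error only. All PRP lysate and IL-1ß libraries lay below that limit, and most of the reads with MSC-CM and with ACS came from 1 library each. With edgeR its lowest adjusted p-value was 0.243, and 3 of the 10 comparisons had an unadjusted p-value of at most 0.05.

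TRAF3IP2 encodes Act1, the adaptor that links the IL-17 receptors to TRAF proteins (ENSECAG00000000591, chromosome 10, 62044307 to 62079534). It was at 40.0, 38.0 and 47.2 CPM in untreated macrophages and at 49.4, 44.4 and 35.9 CPM with IL-1ß. It was at 49.6, 51.3 and 49.8 CPM with MSC-CM, at 58.4, 58.8 and 52.8 CPM with PRP lysate and at 54.5, 58.5 and 63.0 CPM with ACS. Every OT library lay above every IL-1ß and untreated library, and the PRP lysate and ACS libraries lay above those of MSC-CM. The differences were small and did not pass. Over IL-1ß the log2 fold change was 0.39 with PRP lysate (SE 0.139, limma adjusted p = 0.142) and 0.44 with ACS (adjusted p = 0.107), and over untreated macrophages it was 0.44 (adjusted p = 0.144) and 0.49 (adjusted p = 0.234).

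Separation of groups was common among all genes in these data and is read against that background. Of the 8 members tested, the groups did not overlap in 3 with PRP lysate against IL-1ß, 2 with ACS and 2 with MSC-CM against IL-1ß, and 0 with IL-1ß against untreated macrophages. Among all genes tested the shares were 15%, 26.2%, 8.79% and 16.2%. Against untreated macrophages 4 members were apart with PRP lysate, 5 with ACS and 3 with MSC-CM, beside 18.6%, 26.3% and 30.8% of all genes. Between OTs, 4 members were apart in each comparison, beside 19.4% for PRP lysate against MSC-CM, 35.1% for ACS against MSC-CM and 15.6% for ACS against PRP lysate. Over all genes the median of the log2 fold changes was -0.07 for IL-1ß against untreated macrophages, and 0.16 for MSC-CM, 0.11 for PRP lysate and 0.13 for ACS against IL-1ß. After scaling by median-ratio size factors these were -0.02, 0.00, 0.02 and 0.02, and the members' changes printed here kept their direction under that scaling.

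**Figure D3:**
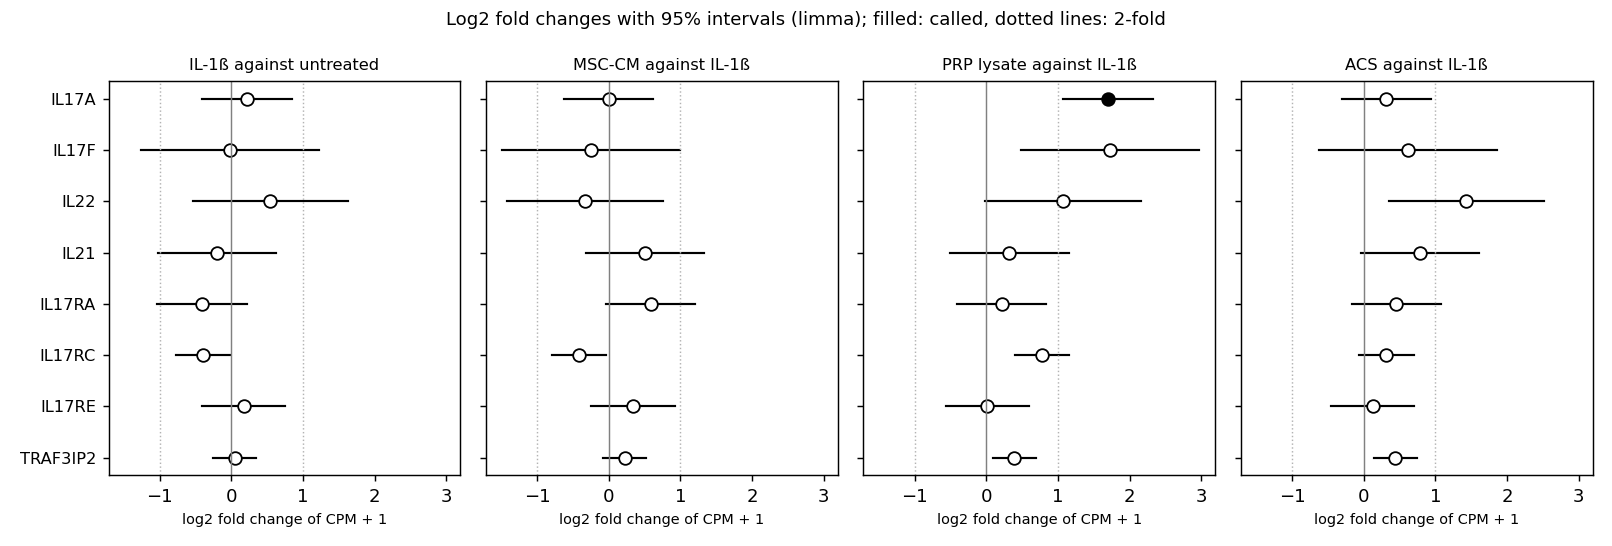
Log2 fold changes of CPM + 1 (horizontal axis) of the 8 members tested, with 95% intervals from limma, for IL-1ß against untreated macrophages and for each OT against IL-1ß. IL17A with PRP lysate (1.70) is the only filled point, which marks a call, and the intervals of IL17F and IL22 are the widest in every panel.

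T cell RNA was measured beside the cytokines, since macrophages are not their usual source. The summed level of 15 T cell markers (CD3 chains, LCK, ZAP70 and others) ranged from 909 to 1308 CPM in the untreated libraries, from 1280 to 2272 CPM under IL-1ß, from 1750 to 1913 CPM under MSC-CM, from 1205 to 2365 CPM under PRP lysate and from 1095 to 1397 CPM under ACS. All 15 markers were above 0, and 0 of them were called in the 4 comparisons of IL-1ß with untreated macrophages and of the OTs with IL-1ß. Their median log2 fold change was 0.54 for IL-1ß over untreated macrophages, and over IL-1ß it was 0.20 for MSC-CM, -0.06 for PRP lysate and -0.36 for ACS. Over untreated macrophages it was 0.58 with PRP lysate and 0.24 with ACS, with 0 called in both. With MSC-CM over untreated macrophages it was 0.82, all 15 were higher and 1 was called (CD247), beside 0.662% of all genes. With PRP lysate over MSC-CM it was -0.26, with 2 of the 15 higher and 0 called. The 2 highest sums were those of PRP lysate replicate 1 and IL-1ß replicate 3. Which cells the cytokine RNA came from was not tested. The values relative to T cell markers given next do not decide it, since marker levels do not give the cytokine RNA per cell. Per 1000 T cell marker reads, IL17A was at 2.17 to 7.32 reads with PRP lysate and at 0.183 to 2.06 reads in all other libraries. With the mean T cell marker level in the model, a fit chosen after the data were seen, the log2 fold change of IL17A with PRP lysate over IL-1ß was 1.72 (limma adjusted p = 0.0038) and that of IL17F was 1.84 (adjusted p = 0.0348). In the same fit IL17A was also called with PRP lysate over untreated macrophages (adjusted p = 0.0374) and over MSC-CM (adjusted p = 0.0198), and IL17F in neither (adjusted p = 0.0822 and 0.307). Per 1000 T cell marker reads, IL17F was at 0.170, 7.80 and 5.41 reads in PRP lysate replicates 1 to 3 and at 0 to 1.64 in all other libraries, so replicate 1 did not stand above them. IL22 per 1000 T cell marker reads was at 34.5 to 61.3 with ACS, 18.4 to 38.2 with PRP lysate, 5.08 to 27.6 with IL-1ß, 4.93 to 24.5 in untreated macrophages and 5.47 to 13.3 with MSC-CM. On this scale ACS overlapped PRP lysate and lay above the IL-1ß, untreated and MSC-CM libraries. The summed level of 12 macrophage markers was 6697 to 11289 CPM with PRP lysate and 10009 to 12716 with ACS, against 12698 to 15876 with IL-1ß. The part of this lower macrophage level in the cytokine levels was not tested.

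**Figure D4:**
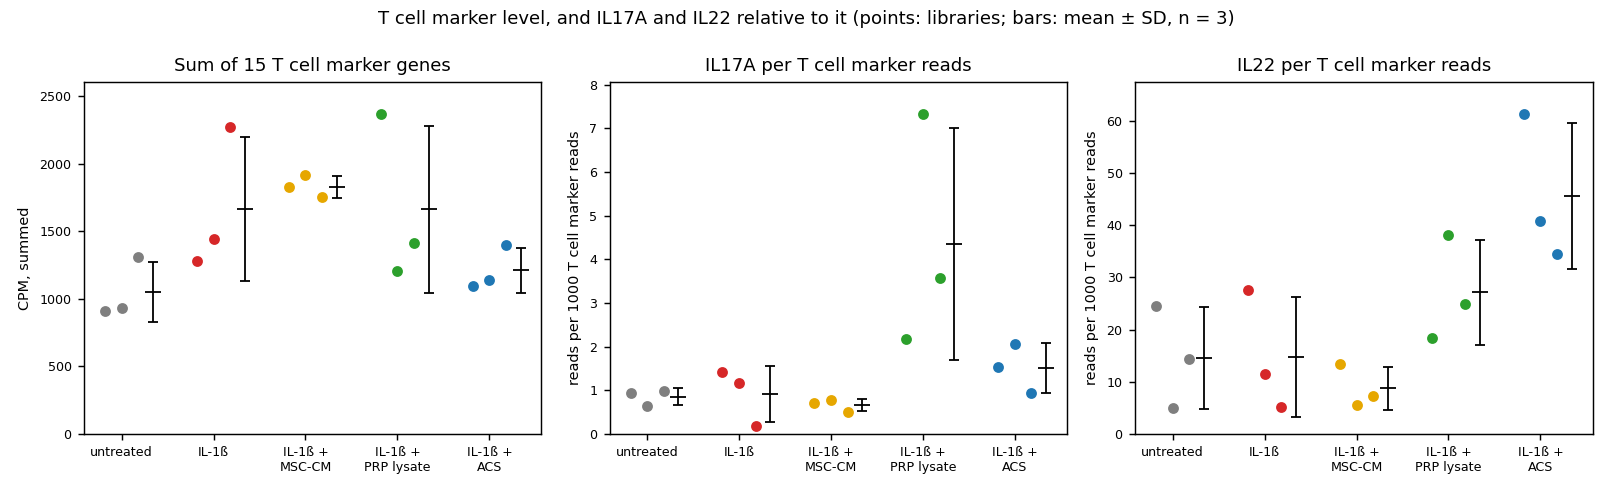
Summed CPM of 15 T cell marker genes (left), and reads of IL17A (middle) and IL22 (right) per 1000 reads of those markers, in each library (points) of the 5 conditions with the mean and SD of 3 libraries. PRP lysate is above all other conditions for IL17A (2.17 to 7.32), and the highest marker sum is in PRP lysate replicate 1 (2365 CPM).

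Genes that mark or specify type 17 lymphocytes were set beside IL17A. Of 12 tested (CCR6, IL23R, KLRB1 and others), 0 rose with PRP lysate over IL-1ß and 1 fell, beside 3.09% of all genes called. This was CCR6, the chemokine receptor that guides type 17 cells, at 3.40 ± 1.01 CPM with PRP lysate and 15.2 ± 5.99 CPM with IL-1ß (log2 fold change -1.83, limma adjusted p = 0.0064). The median log2 fold change of the list was 0.18 with PRP lysate, and 0 of the 12 were called with IL-1ß, MSC-CM or ACS, where it was 0.10, 0.43 and 0.27.

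Cytokines of other T helper types were called with PRP lysate and with ACS against the same IL-1ß libraries. Of the 6 tested, where 3.09% and 2.21% of all genes were called, 3 rose with PRP lysate over IL-1ß and the same 3 with ACS over IL-1ß, namely IFNG, LTA and IL13, and 0 fell. IFNG, the main macrophage-activating cytokine of T helper 1 and NK cells, was at 36.4 ± 6.46 CPM with PRP lysate, 20.3 ± 3.13 CPM with ACS and 9.24 ± 1.37 CPM with IL-1ß, beside 9.82 ± 2.60 CPM in untreated macrophages, with log2 fold changes over IL-1ß of 1.87 (limma adjusted p = 0.00054) and 1.06 (adjusted p = 0.0291). LTA, which encodes lymphotoxin alpha, was at 43.5 ± 13.5, 22.0 ± 4.08 and 9.34 ± 1.55 CPM, beside 17.8 ± 3.10 CPM in untreated macrophages, with log2 fold changes of 2.07 and 1.15 (adjusted p = 0.00071 and 0.0377). IL13, a T helper 2 cytokine, was at 52.9 ± 10.9, 47.3 ± 2.83 and 18.6 ± 1.24 CPM, beside 17.6 ± 2.99 CPM in untreated macrophages, with log2 fold changes of 1.44 and 1.30 (adjusted p = 0.0017 and 0.0066). Over untreated macrophages, PRP lysate called 4 of the 6, which were IFNG, IL13, LTA and IL4, the last named after its values were seen. Their log2 fold changes were 1.80, 1.53, 1.21 and 1.04 (limma adjusted p = 0.0012, 0.0021, 0.0351 and 0.0194). ACS called IL13 there (1.39, adjusted p = 0.0211), and LTA with ACS was 0.29 (adjusted p = 0.915). The list's median was 1.04 with PRP lysate and 0.77 with ACS, and -0.13 with IL-1ß over untreated macrophages and -0.18 with MSC-CM over IL-1ß, where 0 were called. IFNG lies on chromosome 6 with IL26 and IL22, in that order of listed genes. IL22 and IL26 are 16.0 kb apart and IL26 and IFNG 44.4 kb. IL26, between a gene that rose with both OTs and one that was higher without passing, was at 1.52 ± 1.09 CPM with IL-1ß, 2.20 ± 0.408 CPM with PRP lysate and 2.53 ± 1.43 CPM with ACS, and did not pass (adjusted p = 0.568 and 0.344). Its highest mean was with MSC-CM, 3.16 ± 0.763 CPM (adjusted p = 0.705 over IL-1ß), where IFNG and IL22 were not called.

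Of the other ligands of the family and cytokines of the type 17 program, 6 were among the genes measured and 3 could be tested, and 0 were called in the 4 comparisons. IL23A, a subunit of the cytokine that maintains type 17 cells, had 7.33 ± 4.03 CPM with PRP lysate and 14.5 ± 2.03 CPM with IL-1ß (limma adjusted p = 0.163). Its partner subunit IL12B had 0 reads in 13 of the 15 libraries. IL17D was at 0.364 to 6.09 CPM, IL17C had 0 reads in 10 libraries and IL25 had 0 reads in 14. The receptors of IL-21, IL-22 and IL-23 and their shared chains gave 6 tested genes, of which 0 were called, with medians of 0.41, 0.02, -0.03 and -0.13 for IL-1ß over untreated macrophages and for MSC-CM, PRP lysate and ACS over IL-1ß. The medians of the ligand list were 0.54, 0.26, -0.15 and 0.05 in the same order.

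Downstream of the receptor, 33 signaling genes (TRAF proteins, the TAK1 and IKK kinases, NF-kB, C/EBP and AP-1 factors, and inhibitors such as TNFAIP3 and ZC3H12A) were all tested, and in each comparison 0 or 1 was called. With PRP lysate over IL-1ß the 1 of 33 is near the share of all genes, which was 3.09%, and the shares were 2.21% with ACS and 0.292% with IL-1ß. The gene was CEBPD, a transcription factor induced by IL-17 and by IL-1ß, with 9.14 ± 1.04 CPM in the untreated libraries, a rise to 47.4 ± 4.19 CPM under IL-1ß and falls from there to 6.67 ± 1.50 CPM under PRP lysate and 8.16 ± 0.208 CPM under ACS. The log2 fold changes were 2.26 with IL-1ß (limma adjusted p = 0.00023), -2.67 with PRP lysate (adjusted p = 9.9e-06) and -2.40 with ACS (adjusted p = 7.7e-05). With MSC-CM it was at 42.0 ± 10.4 CPM (adjusted p = 0.726). The medians of the list were -0.19 for IL-1ß over untreated macrophages and 0.28, 0.30 and 0.31 for MSC-CM, PRP lysate and ACS over IL-1ß.

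Genes known as targets of IL-17, most of which also respond to IL-1ß and TNF, moved in both directions. Of 19 tested, 4 rose and 2 fell with PRP lysate over IL-1ß, where 124 of all 11628 genes rose and 235 fell (3.09% together). TNF rose from 30.3 ± 8.07 to 121 ± 15.7 CPM (log2 fold change 1.99, limma adjusted p = 0.00080) and CSF2, which encodes GM-CSF, from 21.4 ± 7.06 to 76.1 ± 13.9 CPM (1.82, adjusted p = 0.0014). The neutrophil chemokine CXCL1 (log2 fold change 1.05, adjusted p = 0.0341) and the AP-1 subunit FOSL1 (1.11, adjusted p = 0.0108) also rose. IL6 fell from 49.0 ± 9.91 to 9.45 ± 6.53 CPM (-2.55, adjusted p = 0.0102) and the collagenase MMP1 from 515 ± 85.7 to 169 ± 59.7 CPM (-1.66, adjusted p = 0.0024). With ACS over IL-1ß, 1 rose (TNF, log2 fold change 1.39, adjusted p = 0.0147) and 1 fell (IL6, -2.12, adjusted p = 0.0376), beside 2.21% of all genes called. With MSC-CM 0 were called. IL-1ß itself gave 0 that rose over untreated macrophages and 2 that fell, FOSL1 (-1.28, adjusted p = 0.0352) and the interferon-induced chemokine CXCL10 (-1.56, adjusted p = 0.0495), beside 0.292% of all genes. The medians of the list were 0.19 for IL-1ß over untreated macrophages and -0.33, 0.56 and 0.29 for MSC-CM, PRP lysate and ACS over IL-1ß, and 3 of the listed targets are also in the signaling list.

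Markers of other cells gave 0 calls in these 4 comparisons for 7 NK cell genes, 5 B cell genes and 2 granulocyte genes. The NK cell markers summed to 374 to 852 CPM with PRP lysate and to 261 to 559 CPM with IL-1ß, with a median log2 fold change of 0.23. In untreated macrophages they summed to 214 to 324 CPM, below all PRP lysate libraries. Over untreated macrophages the median with PRP lysate was 0.46, 6 of the 7 were higher and 1 was called, the granule protease gene GZMA (70.5 ± 18.8 against 159 ± 29.3 CPM, log2 fold change 1.18, limma adjusted p = 0.0155), beside 1.6% of all genes. The part of NK cell RNA in the cytokine levels was not tested. The median was -0.43 for the B cell genes. The 4 granulocyte markers measured summed to 340 to 410 CPM with IL-1ß, 503 to 559 CPM with PRP lysate and 546 to 774 CPM with ACS, so both OTs lay above IL-1ß. Most of this was CSF3R, the receptor of G-CSF, which macrophages also express, at 340 ± 43.7 CPM with IL-1ß, 523 ± 32.9 CPM with PRP lysate and 653 ± 115 CPM with ACS (limma adjusted p = 0.0680 and 0.0143, both under 2-fold). MPO and ELANE were under the 1 CPM mean. The part of these genes in the cytokine levels was not tested. Of the 12 macrophage markers, 4 fell with PRP lysate over IL-1ß, beside 235 of all 11628 genes, namely the scavenger receptor CD163 (log2 fold change -5.50, limma adjusted p = 9.0e-06), AIF1 (-1.37, adjusted p = 0.0018), LYZ (-1.72, adjusted p = 0.0329) and MARCO (-1.43, adjusted p = 0.0360). With ACS 2 fell, beside 114 of all genes, CD163 (-3.12, adjusted p = 0.0015) and AIF1 (-1.10, adjusted p = 0.0133). The medians of this list were -0.76 with PRP lysate and -0.37 with ACS, beside 0.01 with IL-1ß over untreated macrophages and -0.24 with MSC-CM over IL-1ß. With PRP lysate over untreated macrophages the median was -0.74 and 0 of the 12 were higher. There 2 fell, CD163 and CSF1R, beside 155 of all genes. With PRP lysate over MSC-CM the median was -0.78 and 2 of the 12 were higher. There 2 fell, CD163 and AIF1, beside 211 of all genes.

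Over the 15 libraries, the genes whose log2(CPM + 1) followed each member most closely were taken as a description. The libraries share conditions and depth, so these values of Pearson's r carry no test. IL17A was most like ODC1 (r = 0.869), which encodes the first enzyme of polyamine synthesis, IFNG (r = 0.863) and GPR18 (r = 0.853). IL17F was most like ENSECAG00000028085 (r = 0.961), the T cell cytokine IL31 (r = 0.904) and the myeloid receptor CLEC5A (r = 0.892). IL22 was most like DKK3 (r = 0.839), IL13 (r = 0.836) and CXCL1 (r = 0.833). The genes nearest to IL21 were TYW5, HEG1 and TFAM (r = 0.957 to 0.945), and those nearest to IL17RA were RNF115, ENSECAG00000042051 and ALKBH5 (r = 0.972 to 0.963). IL17RC was most like CACTIN and TUBA1C (both r = 0.949), IL17RE was most like OSR2 (r = 0.919), and TRAF3IP2 was most like PMAIP1 (r = 0.924), a gene of the apoptosis machinery.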

How the data were processed

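The authors trimmed reads at a Phred score of 20, aligned them with STAR 2.7.3 to EquCab3.0 in Partek Flow, counted them with HTSeq on Ensembl genes and deposited the result as CPM, scaled by each library's own total. The authors' differential test was DESeq. Whether counting used the strand is not given in the sources used here, so overlapping, antisense and paralogous genes are uncertain. All 15 columns matched their samples by header and 0 were left over. The ACS labels carry names or codes in place of replicate numbers, and the ACS replicates are numbered here in the order of their columns. Column sums of 982495 to 991421 CPM show that reads on unlisted genes are missing.

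From the deposited CPM, limma with an intensity trend was run on log2(CPM + 1) for 11628 genes whose mean reached 1 CPM. The model held all 15 libraries and 5 conditions, and p-values were adjusted within each comparison (Benjamini-Hochberg). Reads were recovered as multiples of each library's smallest step (99.5% of values whole within 0.05 reads) for edgeR, used for IL17RB and IL17RD, and for DESeq2. Depth was 28410733 to 47894066 reads, and intervals and limits at 0 reads cover counting error only. The 10 comparisons were IL-1ß or an OT against untreated macrophages, each OT against IL-1ß and the OTs against each other. Alternatives were edgeR, DESeq2, RLE and TMM scaling, a pseudocount of 0.1, no filter, calls by adjusted p-value alone, fits of the compared groups by themselves, a replicate block, leaving out libraries and, added after the data were seen, a T cell marker covariate. Same-number libraries of MSC-CM and PRP lysate, whose products came from the same horses, deviated together from their group means (r = 0.635, 0.255 and 0.419). No label says that a number marks a horse, and replicates 2 and 3 were not told apart by number. MSC-CM replicate 2 with PRP lysate replicate 3 (r = 0.388) and MSC-CM replicate 3 with PRP lysate replicate 2 (r = 0.470) correlated more than their same-number pairs. No other pair of numbered conditions had every same-number r above 0.1.

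All members are named. Of 11 lists of related genes, those called in the 4 comparisons of IL-1ß with untreated macrophages and of the OTs with IL-1ß are named, at most 6 per list, and also any gene that the text describes by its role or place, chosen after its values were seen (CXCL10, CSF3R, GZMA, MPO, ELANE, IL4, IL26, IL23A, IL12B, IL17C, IL17D, IL25, the macrophage and T cell markers). Of the patterns, the 3 most similar genes per member were taken. Members, lists and tests were chosen with earlier results of these data known. A log2 fold change is printed for the 24 member comparisons with an unadjusted p-value of at most 0.05. The steps were tested on simulated data. Software comprised Python 3.11.15 with matplotlib 3.10.9 for figures, and R 4.3.3 with DESeq2 1.42.0, edgeR 4.0.16 and limma 3.58.1 for tests.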

Additional observations from a re-analysis of the deposited data

Results flagged for a closer look

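The effects of PRP lysate and MSC-CM on IL-1ß treated macrophages differed for IL17A, by 1.70 on the log2 scale (limma adjusted p = 0.0043), with 6.33 ± 2.16 CPM for PRP lysate and 1.21 ± 0.293 CPM for MSC-CM, and all 3 PRP lysate libraries above all 3 MSC-CM libraries. They also differed for IL17RC, by 1.19 (limma adjusted p = 0.0017). For IL17RC every PRP lysate library lay above and every MSC-CM library below the untreated libraries, and the means of these OTs were 134 CPM apart. This opposite displacement from untreated macrophages was not tested in itself. With 3 libraries in a group, Dixon's test for an outlying value was not run.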

How the results depend on the processing

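Counts of called members moved as follows. For PRP lysate against IL-1ß the count of 1 became 2 with DESeq2, with the T cell marker covariate (added after seeing the data) and without the 3 libraries that stand apart (IL17A and IL17F each time), 2 without a fold threshold (IL17A and IL17RC), 0 in a fit of only the groups compared, and 1 to 2 when each library was left out in turn. For ACS against IL-1ß leaving out libraries gave 0 to 1 (IL22). For MSC-CM against untreated macrophages no fold threshold gave 1 (IL17RC). For PRP lysate against untreated macrophages DESeq2 and the fit without the 3 libraries gave 2, and leaving out libraries 1 to 2 (IL17F added without PRP lysate replicate 1). For ACS against untreated macrophages DESeq2, only the groups compared and the fit without the 3 libraries gave 1 (IL22). For PRP lysate against MSC-CM DESeq2 gave 3 (IL17F added), the fit without the 3 libraries 4, and leaving out libraries 2 to 3. For ACS against MSC-CM DESeq2 and only the groups compared gave 1 (IL22), and the fit without the 3 libraries 2 (IL17F and IL22). For ACS against PRP lysate DESeq2 gave 1 (IL17A), the fit without the 3 libraries 2 (IL17A and IL17F), and leaving out libraries 0 to 1 (IL17F without PRP lysate replicate 1). The counts over all genes moved too. For PRP lysate against IL-1ß, untreated and MSC-CM they were 359, 186 and 304 with limma, 694, 320 and 488 with DESeq2 and 526, 284 and 572 without the 3 libraries. For ACS against untreated, MSC-CM and PRP lysate they were 43, 143 and 11, then 122, 292 and 61, and then 139, 295 and 49. With only the groups compared 56 were called for PRP lysate against IL-1ß, and 130 and 323 for ACS against untreated and MSC-CM. The T cell covariate gave 387, 48 and 392 for PRP lysate against IL-1ß, untreated and MSC-CM, and 1 in place of 77 for MSC-CM against untreated. Leaving out 1 library at a time gave 275 to 469, 89 to 210 and 171 to 398 for PRP lysate against IL-1ß, untreated and MSC-CM. For ACS against IL-1ß, untreated, MSC-CM and PRP lysate it gave 103 (without ACS replicate 2 or 3) to 705 (without IL-1ß replicate 1), 5 (without untreated replicate 1) to 39, 53 (without MSC-CM replicate 3) to 125 and 5 to 16. It gave 5 (without untreated replicate 3) to 35 for IL-1ß and 10 to 17 for MSC-CM against untreated. The cause was not tested.

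The 24 printed fold changes gave 416 values under alternatives, of which 0 reversed, 1 lost its call and 20 gained one. Of the 56 others, 27 changed sign under at least 1 alternative. Of 18 same-number pairs 11 correlated above 0.1 (r from -0.775 to 0.635), and MSC-CM with PRP lysate were the only conditions with all 3 of their pairs above it. Different-number pairs of MSC-CM with PRP lysate reached r = 0.470. With the replicate block, over the 12 numbered libraries, the counts of members called stayed at 1, 1 and 2 for PRP lysate against IL-1ß, untreated and MSC-CM, where IL17A (1.70, limma adjusted p = 0.0348) and IL17RC (1.19, adjusted p = 0.0251) were still called. All genes called for PRP lysate against IL-1ß, untreated and MSC-CM were 197, 73 and 171 with the block and 277, 143 and 238 in the same libraries without it. On the recovered reads edgeR called 388 genes for PRP lysate against IL-1ß and 242 for ACS against IL-1ß, where limma called 359 and 257, and 21 against 43 for ACS against untreated macrophages. Depth limits IL17A, IL17F, IL17RB and IL17RD, which had under 100 reads in most libraries.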
